A study of Mus musculus with 4 samples.

Results

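The BTG and TOB genes form a small family of antiproliferative proteins. They were followed here in mouse CD4+ regulatory T cells with and without the transcription factor Foxp3. Their platform gene symbols, Btg1, Btg2, Btg3, Tob1 and Tob2, were matched exactly, which gave 12 probe sets of 45101 on the array and 34945 with 1 gene symbol. A probe set is a group of short oligonucleotides read together for 1 transcript. The 12 probe sets stood for 4 of the 5 genes, out of 18193 genes with such a probe set, with 3 for Btg1, 2 for Btg2, 2 for Tob1 and 5 for Tob2. Btg3 had none of its own, because the only probe set that names it is annotated to Gm7334 as well. The family was picked on earlier results of these same arrays, in which a Btg2 probe set read higher in Foxp3-deleted cells. The differences of its members between the groups are therefore given as a description, without a test.

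BTG and TOB proteins share a conserved amino-terminal domain through which they bind the catalytic subunits of the CCR4-NOT complex, the main machinery that shortens the poly(A) tails of messenger RNAs. By recruiting this complex they promote mRNA decay, and they slow entry into the cell cycle when overexpressed. In mouse T cells Btg1 and Btg2 together are known to maintain quiescence, and TOB1 is known in human T cells as a negative regulator of activation.

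One group held 2 arrays of CD4+ YFP+ Ly5.2+ T cells whose Foxp3 gene was flanked by loxP sites and had been exposed to Cre (deleted cells). The other group held 2 arrays of CD4+ YFP+ Ly5.2+ T cells with a wild-type Foxp3 gene, likewise exposed to Cre. Cells of both groups had been treated with HR-MMPCreGFP and recovered 6 weeks after transfer into hosts, with YFP marking Cre exposure. The comparison asked what changes in mature regulatory T cells once Foxp3 is removed, and the labels give neither the ages of the animals nor any pooling.

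Foxp3 read 437.8 and 429.8 on the deleted arrays, against 2693.5 and 2404.4 on the wild-type arrays (GCRMA intensity, linear scale), so the labels and the targeted transcript pointed the same way. The place of its probe set relative to the deleted part was not analysed here. Arrays differed little in overall brightness, with median intensities from 8.38 to 8.94, and their number limits the precision of every value. All 6 measured CD4 T cell markers had a mean log2 intensity of at least 4, while Cd8a and Cd8b1 lay below it. The summed intensities of those 6 were 15106 and 14235 on the deleted arrays, against 11066 and 11152 on the wild-type arrays. Of the 6, 5 had a higher mean in deleted cells, and Cd4 was higher by 1.56 without overlap. Among all 8629 genes that reached a mean log2 intensity of 4, 4153 had a higher mean. All 6 regulatory T cell markers read lower by at least 1 in deleted cells. Deleted replicate 1 stood apart in 2 ways: 26 of 29 proliferation genes read lower in it than in deleted replicate 2, and the summed intensity of 10 myeloid markers was 6688 in it, against 2279 in deleted replicate 2, 1648 in wild-type replicate 1 and 1844 in wild-type replicate 2. In such bulk samples fewer cells of a type and less RNA per cell cannot be told apart.

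The stretches of 250 bases before the annotated starts of Btg2 and Btg1 are shown because these genes held the only member probe sets with a difference of at least 1 on the log2 scale. Sequences are from RefSeq, build GRCm38.p6, read 5′ to 3′ on the gene's strand. Btg2 lies on chromosome 1 and its stretch is chr1:134079156-134079405 on the minus strand. Btg1 lies on chromosome 10 and its stretch is chr10:96616751-96617000 on the plus strand. Capitals mark matches to the cAMP response element TGACGTCA, the forkhead motif TGTTTAC, the CCAAT box and the TATA box TATAAA on either strand.
Btg2: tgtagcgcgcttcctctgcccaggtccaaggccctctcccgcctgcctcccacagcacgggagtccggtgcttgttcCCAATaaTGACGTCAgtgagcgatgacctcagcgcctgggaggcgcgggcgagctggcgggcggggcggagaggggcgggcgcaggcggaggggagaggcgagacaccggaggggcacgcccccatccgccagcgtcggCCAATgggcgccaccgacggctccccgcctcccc
Btg1: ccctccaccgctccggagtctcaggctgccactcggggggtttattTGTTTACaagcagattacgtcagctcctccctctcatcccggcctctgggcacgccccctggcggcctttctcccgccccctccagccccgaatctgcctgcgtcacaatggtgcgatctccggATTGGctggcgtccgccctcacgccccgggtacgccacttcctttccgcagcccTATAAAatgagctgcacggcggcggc

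Both stretches hold CCAAT boxes and GC boxes (GGGCGG, found in 32.7% of stretches), and they differ in the other motifs. That of Btg2 has a full cAMP response element beginning 166 bases before the start and CCAAT boxes at 173 and 34 bases, whereas the forkhead and TATA motifs were not found in it. That of Btg1 has a forkhead motif at 204 bases, a CCAAT box on the opposite strand at 80 bases and a TATA box at 26 bases. Among 32851 annotated promoter stretches of this length, 1.55% hold TGACGTCA, 3.17% hold TGTTTAC, 33.9% hold the CCAAT box and 12.4% hold TATAAA. Tob1 (chromosome 11) has 2 CCAAT boxes and a TATA box, while Tob2 (chromosome 15) has none of these 4 motifs. GC boxes number 3 in Btg2, 2 in Btg1, 3 in Tob1 and 2 in Tob2. A match in letters is a description and does not show that a factor binds.

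Btg2, known as an early-response gene and a p53 target, had the largest difference of the members. Its probe set 1416250_at read 1031 and 1088 on the deleted arrays, against 114.7 and 158.2 on the wild-type arrays. Both deleted arrays lay far above both wild-type arrays, and the groups were separated by 2.70 on the log2 scale at their nearest values. The mean log2 intensity was 10.05 ± 0.05 in deleted cells and 7.07 ± 0.33 in wild-type cells (SD, n = 2 each), a difference of 2.98 (limma SE 0.34) or 7.86-fold. The spread within each group was small beside the difference, which stayed between 2.74 and 3.21 when any 1 array was left out. With the groups 2.70 apart at their nearest values, no left-out array could take it below that. A higher Btg2 probe set on these arrays was the reason for the pick, so nothing is read from this size or steadiness.

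The other Btg2 probe set behaved differently, although the platform annotation lists the same transcript record for both. Probe set 1448272_at read 193.8 and 104.4 on the deleted arrays, against 105.5 and 102.4 on the wild-type arrays. Only deleted replicate 1 stood above the rest, and deleted replicate 2 lay within the wild-type range. The difference was 0.45 (SE 0.44), and it was 0.006 without deleted replicate 1. The 2 Btg2 probe sets therefore differed from each other by 2.52 in their group difference. Of 3448 genes with at least 2 fitted probe sets, 43 (1.25%) had a range at least that wide, and the median range was 0.58. Averaged over both probe sets the Btg2 difference was 1.71. Probe positions along the transcript were not analysed here, so it was not tested which part of the transcript each one reads.

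**Figure D1:**
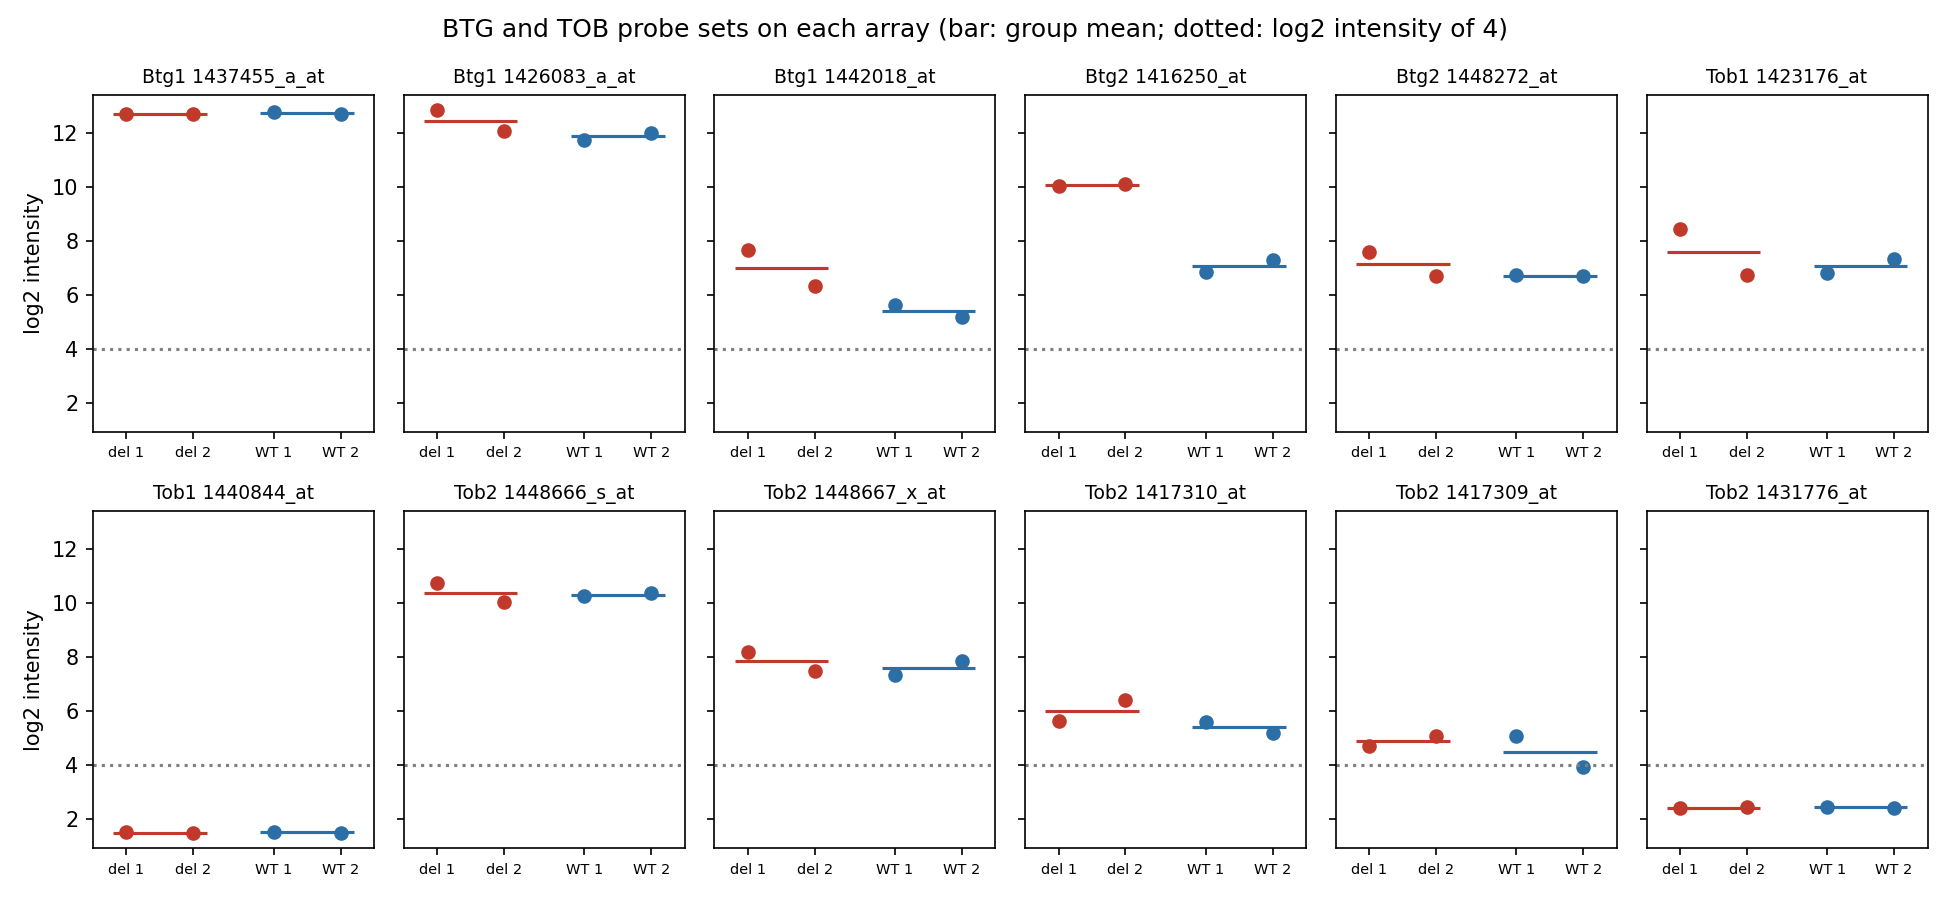
Log2 intensity of each of the 12 BTG and TOB probe sets on the 2 deleted arrays (red, left) and the 2 wild-type arrays (blue, right), with group means as bars and a dotted line at a log2 intensity of 4. Btg2 1416250_at separates the groups by 2.70 at their nearest values, Btg1 1442018_at by 0.71, and Tob1 1440844_at and Tob2 1431776_at lie below the line on all 4 arrays.

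Btg1, the closest relative of Btg2 and a gene highly expressed in resting lymphocytes, was read by 3 probe sets that gave 3 answers. The brightest, 1437455_a_at, read 6641 and 6687 on the deleted arrays, against 6917 and 6618 on the wild-type arrays. These values overlapped, with a log2 difference of -0.02 (SE 0.17). The next, 1426083_a_at, read 7283 and 4252 on the deleted arrays, against 3417 and 4080 on the wild-type arrays. The groups were 0.06 apart on the log2 scale at their nearest values, and the difference of 0.58 (SE 0.32) rested largely on deleted replicate 1, being 0.19 without it. The dimmest, 1442018_at, read 203.9 and 80.3 on the deleted arrays, against 49.2 and 36.7 on the wild-type arrays. Its groups did not overlap, and its mean log2 intensity was 7.0 ± 0.95 in deleted cells and 5.41 ± 0.30 in wild-type cells (SD, n = 2 each). The difference of 1.59 (SE 0.55), or 3.01-fold, shrank to 0.92 when deleted replicate 1 was left out and was 2.26 when deleted replicate 2 was. The 3 Btg1 probe sets spanned 1.61 in their differences, a range matched or passed by 7.98% of genes with at least 2 fitted probe sets. The annotation gives each a different source record, and the transcript forms they read were not compared.

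Tob1, which encodes an activation inhibitor with a longer carboxy-terminal part than the BTG proteins, was detected by 1 of its 2 probe sets. Probe set 1423176_at read 348.3 and 107.6 on the deleted arrays, against 110.6 and 159.9 on the wild-type arrays. Deleted replicate 1 was highest and deleted replicate 2 lowest of the 4 arrays, so that the deleted values enclosed the wild-type ones. The difference of 0.54 (SE 0.65) was smaller than the gap of 1.69 between the deleted arrays, and was -0.31 without deleted replicate 1. The second probe set, 1440844_at, read between 2.83 and 2.85 on all 4 arrays, far below the array medians, and says nothing about a difference.

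Tob2, the close relative of Tob1, was read by 5 probe sets, of which 4 share a source record. The brightest, 1448666_s_at, read 1695 and 1046 on the deleted arrays, against 1229 and 1312 on the wild-type arrays, a difference of 0.07 (SE 0.34). Probe set 1448667_x_at read 290.6 and 179.8 on the deleted arrays, against 163.1 and 233.0 on the wild-type arrays, a difference of 0.23 (SE 0.42). In both the wild-type values lay inside the range of the deleted ones, or overlapped it, and the suffixes mark designs that can also match related transcripts. Probe set 1417310_at read 49.2 and 84.0 on the deleted arrays, against 48.5 and 36.9 on the wild-type arrays. Its groups were 0.02 apart at their nearest values, with a difference of 0.61 (SE 0.42) that was 0.22 without deleted replicate 2. Probe set 1417309_at read 25.8 and 33.7 on the deleted arrays, against 33.5 and 15.2 on the wild-type arrays, with overlap and a difference of 0.39 (SE 0.48). Leaving out 1 array at a time, the difference took both signs at 3 of these 4 probe sets, running from -0.28 to 0.42 at 1448666_s_at, from -0.12 to 0.58 at 1448667_x_at and from -0.18 to 0.96 at 1417309_at. The fifth, 1431776_at, read between 5.36 and 5.53 on all arrays. The 4 fitted Tob2 probe sets lay within 0.54 of one another, and none differed by as much as 1.

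**Figure D2:**
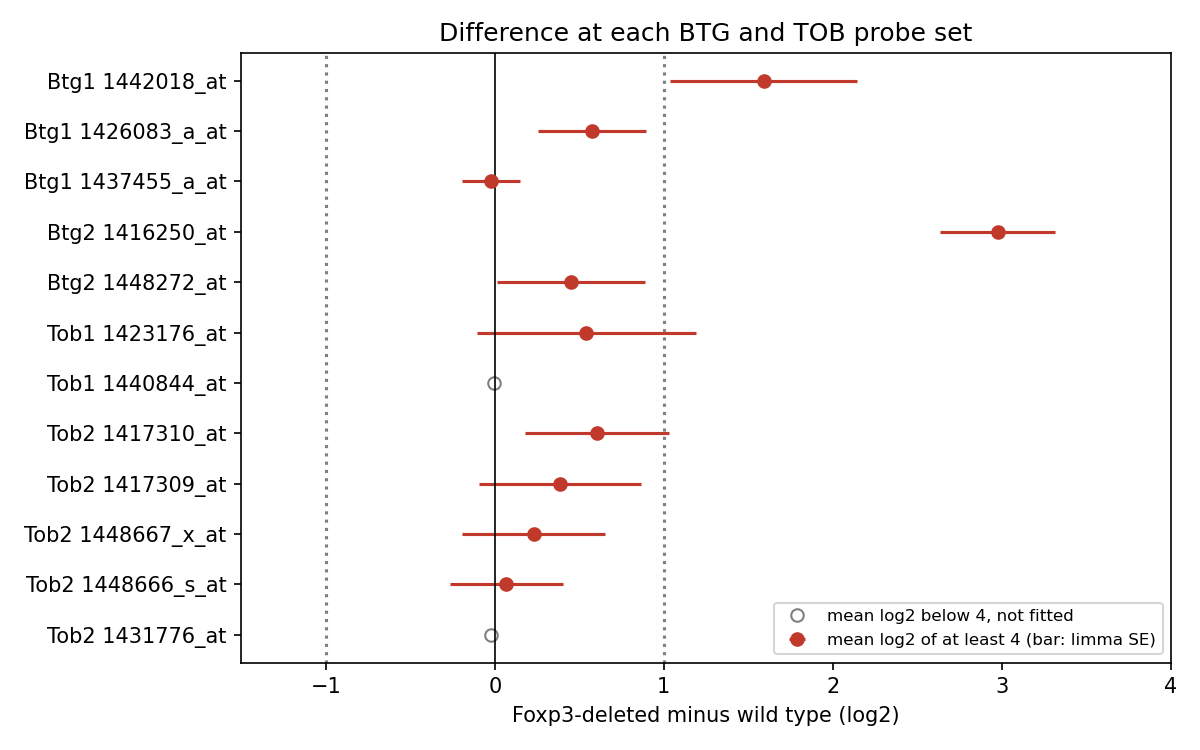
Difference between deleted and wild-type cells (log2, horizontal axis) for each BTG and TOB probe set, with the standard error of the limma fit as a bar. Open circles mark the 2 probe sets whose mean log2 intensity was below 4, and dotted lines stand at -1 and 1. Btg2 1416250_at lies at 2.98 and Btg1 1442018_at at 1.59, while the remaining filled points lie between -0.02 and 0.61.

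The family members outside these 12 probe sets gave no clear difference. The probe set shared by Btg3 and Gm7334, 1449007_at, read 172.4 and 44.5 on the deleted arrays, against 76.2 and 117.5 on the wild-type arrays. The deleted values enclosed the wild-type ones, and which of the 2 genes gave the signal was not tested. Btg4, a relative known from oocytes, read 5.91 and 5.84 on the deleted arrays, against 6.17 and 5.47 on the wild-type arrays, below the median intensity of every array.

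Set beside the whole array, 10 of the 12 member probe sets passed the filter of a mean log2 intensity of at least 4. Of those 10, 9 had a higher mean in deleted cells and 1 a lower mean, with a median difference of 0.50, while the median over all 13999 fitted probe sets was 0.006. A difference of at least 1 without overlap between the groups was found at 2 of the 10, both higher, where 6.67% of all fitted probe sets were higher by this rule and 4.44% lower. Because the family was known to hold a higher probe set when it was picked, nothing is read from that count. The limma fit with Benjamini-Hochberg adjustment over all probe sets called 0 of 13999 (0%) at 0.05, with a lowest adjusted p = 0.0956 and 1338 below an unadjusted 0.05. At 6 of the 10 member probe sets the gap between the 2 deleted arrays was at least as large as the difference between the groups. The share of all fitted probe sets with such a gap was not computed, so this count is not read as a trait of the members.

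Deleted replicate 1 read above deleted replicate 2 at 6 of the 10 fitted member probe sets, close to the 54.1% of all fitted probe sets at which it did so. At those 6 it held the highest value of the 4 arrays, where 25.2% of all fitted probe sets were highest on it. Because the family was picked for a higher probe set in deleted cells, nothing is read from that count. The 6 included at least 1 probe set of each of the 4 genes, and Btg2 1416250_at was not one of them. Of 10 myeloid markers, 6 had a mean log2 intensity of at least 4. S100a8, Lyz2, Csf1r, Tyrobp and Fcer1g read highest on the same array, but Adgre1 did not. Adgre1 had log2 intensities of 4.33 and 4.44 on the deleted arrays, against 4.36 and 4.32 on the wild-type arrays. S100a8 was the brightest of the 10 on every array, with 12.10 and 10.60 on the deleted arrays, against 9.78 and 10.25 on the wild-type arrays. Lyz2, lysozyme of macrophages and neutrophils, had log2 intensities of 9.69 and 6.30 on the deleted arrays, against 5.65 and 7.24 on the wild-type arrays. Cd14, Itgam and Itgax lay below 4 on all 4 arrays, and Cd68 had 4.34 on deleted replicate 1 and between 2.64 and 2.75 on the others. The part of this signal in the member values was not tested. Without deleted replicate 1 the difference was 3.01 at Btg2 1416250_at and 0.006 at Btg2 1448272_at. The 7 measured B cell markers had summed intensities of 1874 and 2578 on the deleted arrays, against 10114 and 9511 on the wild-type arrays, mostly from Ighm. Cd79b differed by -2.04 and Cd22 the other way, by 1.37, both without overlap between the groups, and Cd79a, Ms4a1, Pax5 and Blk had means below 4. Their part was not tested either.

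**Figure D3:**
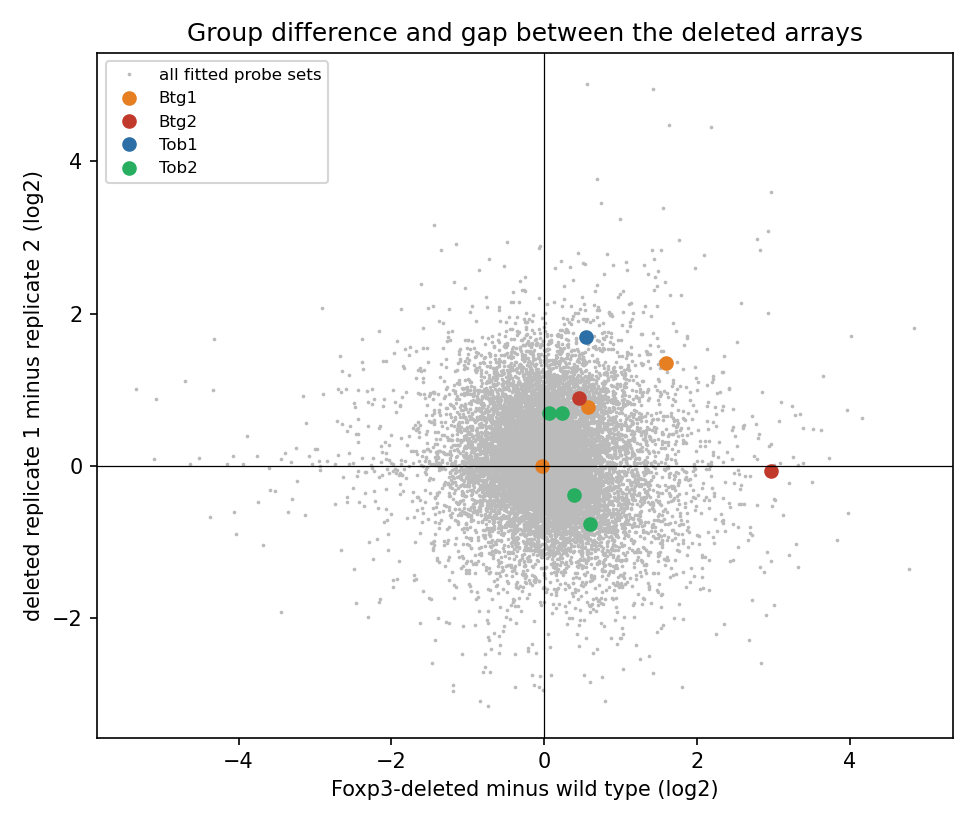
Group difference (deleted minus wild type, log2, horizontal axis) against the gap between deleted replicates 1 and 2 (log2, vertical axis) for all 13999 fitted probe sets (grey) and for Btg1, Btg2, Tob1 and Tob2. Btg2 1416250_at sits far right at a gap of -0.08, whereas Tob1 1423176_at and Btg1 1442018_at have gaps of 1.69 and 1.34.

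The profile of Btg2 1416250_at over the 4 arrays was compared with the brightest probe set of each of 8628 other fitted genes, by the Euclidean distance of log2 values centred on their own means. The nearest was Rab39b, which encodes a small GTPase, at a distance of 0.26, with log2 intensities of 6.42 and 6.14 on the deleted arrays, against 3.06 and 3.57 on the wild-type arrays. Next came Rflnb (0.37), the phosphodiesterase gene Pde7a (0.44), the scavenger receptor gene Cd163l1 (0.49) and Lrrc75b (0.50), with differences between 2.61 and 3.01. Cd163l1 is also a gamma-delta T cell marker, and the other 2 measured markers of those cells, Blk and Sox13, lay below 4. Rab39b, Cd163l1 and Lrrc75b had wild-type means below a log2 intensity of 4. With 4 arrays such likeness mostly restates a difference of similar size.

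Genes that work with the family or share its setting were taken from 5 lists, each gene by its brightest probe set, and 0 members of any list passed the adjusted threshold in limma in either direction. Over 8629 fitted genes the fit called 0 (0%), with 859 below an unadjusted 0.05 (3 deadenylation, 2 quiescence, 1 p53, 1 proliferation and 3 immediate early genes), and by size without overlap 5.57% of genes were higher and 4.93% lower. Of all fitted genes 4153 had a higher mean and 4476 a lower mean in deleted cells, and the median difference was -0.02.

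The deadenylation list holds the subunits and partners through which BTG and TOB proteins act. Of its 16 fitted genes 9 had a higher mean and 7 a lower mean in deleted cells, with a median difference of 0.29 (0.03 without wild-type replicate 1, 0.19 without deleted replicate 1, 0.11 without deleted replicate 2 and 0.44 without wild-type replicate 2), and 3 were higher by at least 1 without overlap. Prmt1, an arginine methyltransferase known to bind BTG1 and BTG2, had log2 intensities of 9.11 and 8.88 on the deleted arrays, against 6.98 and 7.86 on the wild-type arrays, a difference of 1.58 (adjusted p = 0.336 in limma). Cnot6l, a catalytic deadenylase, had 10.12 and 10.15 on the deleted arrays, against 8.87 and 8.77 on the wild-type arrays, a difference of 1.31 (adjusted p = 0.248 in limma). The lowest were the poly(A)-specific ribonuclease gene Parn at -0.98 and the poly(A)-binding protein gene Pabpc4 at -0.65. The third gene past 1 was Cnot11 at 1.19. Its log2 intensities were 5.64 and 5.54 on the deleted arrays, against 3.54 and 5.26 on the wild-type arrays. The value of wild-type replicate 1 thus lay below 4. Cnot11 was named, as were Cnot7 and Cnot8, the subunits that BTG and TOB proteins bind directly, after their values were seen. Cnot7 differed by 0.28 and Cnot8 by -0.03, each with overlapping groups.

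Quiescence genes were evenly divided, with 10 of 20 higher, 10 lower and a median difference of 0.04, which ran from -0.07 without deleted replicate 1 to 0.20 without deleted replicate 2. Klf2, a factor that keeps naive T cells resting, had log2 intensities of 9.95 and 10.80 on the deleted arrays, against 8.49 and 8.90 on the wild-type arrays, a difference of 1.68 (adjusted p = 0.281 in limma). Runx1 differed by 1.33, and the lowest were Mxd4 at -0.61 and Klf4 at -0.60. Size without overlap was reached by 3 genes, all higher, the third being Tsc1 (1.20), which was named after its value was seen.

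The p53 target list, to which Btg2 itself belongs in the literature but not in this count, had 5 of 12 genes higher and 7 lower, with a median difference of -0.06, which, leaving out 1 array at a time, lay between -0.21 and -0.08. Sesn1, a stress-induced inhibitor of mTORC1 signalling, had log2 intensities of 9.0 and 8.32 on the deleted arrays, against 10.02 and 10.39 on the wild-type arrays, a difference of -1.54 (adjusted p = 0.281 in limma). Trp53inp1 differed by -0.64, Zmat3 by 0.64 and Mdm2, the p53 ubiquitin ligase gene, by 0.36. The list names 22 genes, of which these 12 were fitted. Because the family was picked for a higher Btg2 probe set, nothing is read from setting its size beside this list. The other Btg2 probe set, 1448272_at, differed by 0.45, and a part of p53 was not tested.

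Proliferation genes had 23 of 29 lower means, with a median difference of -0.27, but the 2 deleted arrays disagreed. Centred on each gene's mean, the list median was -0.75 in deleted replicate 1 and 0.51 in deleted replicate 2, against 0.32 and 0.09 in wild-type cells. Left out in turn, deleted replicate 1 turned the median difference to 0.43 and deleted replicate 2 took it to -0.96. Ccne2 (cyclin E2) had log2 intensities of 5.52 and 4.96 on the deleted arrays, against 7.05 and 6.32 on the wild-type arrays, a difference of -1.44 (adjusted p = 0.374 in limma). Plk1 differed by -0.74, Cdk4 by 0.72 and Birc5 (survivin) by 1.30, and of these Plk1 and Birc5 had overlapping groups. Deleted replicate 1, the array with the low proliferation median, was also the one in which Tob1 1423176_at and Btg1 1442018_at read highest, and a link between them was not tested.

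Immediate early genes, the class in which Btg2 was first described, had 15 of 21 lower means and a median difference of -0.25. Nr4a3, an orphan nuclear receptor gene induced by T cell receptor signals, had log2 intensities of 6.92 and 7.39 on the deleted arrays, against 9.21 and 8.58 on the wild-type arrays, a difference of -1.74 (adjusted p = 0.276 in limma). Dusp1, a MAP kinase phosphatase gene, differed by -1.20. The largest positive differences were those of Zfp36l2, an mRNA-decay factor gene, at 1.27 (adjusted p = 0.463 in limma) and Ier2 at 0.45. By size without overlap 3 genes were lower and 1 higher, the third lower one being Nr4a1 at -1.02, named after its value was seen. The list median became -0.62 with deleted replicate 1 left out and 0.02 with deleted replicate 2 left out.

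**Figure D4:**
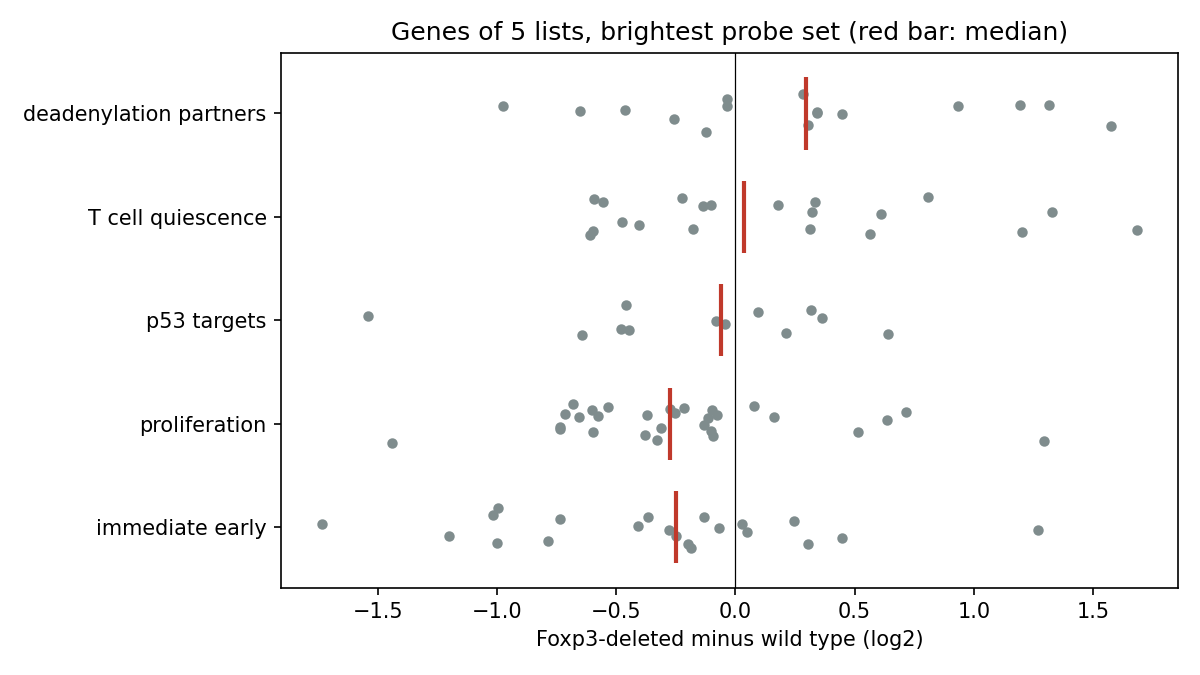
Difference between deleted and wild-type cells (log2, horizontal axis) for each fitted gene of 5 lists, by its brightest probe set, with the list median as a red bar; vertical scatter within a list only separates points. Medians run from 0.29 for deadenylation partners to -0.27 for proliferation genes.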

How the data were processed

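RNA was measured on 4 single-colour arrays. The authors deposited linear intensities, and the tool named in the submitters' processing notes is GCRMA 1.1.3. It removes a background modelled from probe sequence and normalizes across arrays. How this changes the differences of dim probe sets was not tested. Groups came from the sample titles, and no 2 arrays were identical. Separate animals are not named, so the spread behind each p-value is that between these arrays and can be technical.

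Values were taken to log2 with no pseudocount. Probe sets with several symbols (932) or none (9211), and 64 control sets, were left out, and a mean log2 of at least 4 was required, leaving 13999. Of the probe sets kept, Entrez identifiers of 34741 matched RefSeq genes of GRCm38.p6, which changed 0 symbols. The fit used limma 3.58.1 in R 4.3.3 (lmFit, eBayes with an intensity trend, two-sided, Benjamini-Hochberg over all fitted features, 2 residual degrees of freedom), and was tested on simulated data. Members, lists and tests were chosen with earlier results of these data known. Genes named from the lists were the 2 largest differences in each direction, with Cnot7, Cnot8, Cnot11, Tsc1 and Nr4a1 added after their values were seen. Plots used matplotlib 3.10.9.

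Same-numbered arrays deviated from their group means in opposite directions (r = -0.27 over probe sets), so the numbers were not taken to pair them. Alternatives were the filter, a floor, a pseudocount, normalization, the variance trend, the choice of probe set, a replicate block and leaving out each array.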

Additional observations from a re-analysis of the deposited data

How the results depend on the processing

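With 2 arrays a group, the count of probe sets past the adjusted threshold depended on the setting. It was 0 in the main setting and 18 with a mean log2 of at least 6, 15 after quantile normalization and 30 with the mean over the probe sets of a gene; the cause was not tested, though the first and last fit fewer features. It was 0 under the other alternatives, with the replicate block too (0, with 928 below an unadjusted 0.05), and 0 with the crossed replicate block, added after seeing the data (1952). The 934 higher and 621 lower probe sets at least 1 apart became 520 and 337 with a mean log2 of at least 6, 481 higher by the brightest probe set and 463 and 377 by the gene mean, with fewer features in each, and 376 lower with log2(value + 16). Leaving out 1 array gave 865 to 1915 higher and 820 to 1181 lower, the most without wild-type replicate 2, and 1063 lower without deleted replicate 1.

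Member probe sets at least 1 apart numbered 2, but 1 with the brightest probe set, 1 with the gene mean and 1 to 3 without 1 array, the 1 being without deleted replicate 1. Btg1 1442018_at turned to -0.022 by the brightest probe set, which is another Btg1 probe set. For Btg2 1416250_at all 10 alternatives gave a positive value. The lowest, 1.71, is the gene mean, which takes in the other Btg2 probe set, and the values of 1416250_at itself ran from 2.74 to 3.21. The list counts past the adjusted threshold stayed 0 under every alternative run, while the p53 target median moved to -0.45 with a mean log2 of at least 6, on 9 genes.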
